A study of Mus musculus with 2 samples.

Results

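Sinusoidal endothelial cells of the bone marrow numbered 10794 of the 55783 cells that passed the filters in 2 single-cell RNA libraries of mouse femur and tibia, 7291 in the Control library and 3503 in the Dach1OE library. They were chosen by their measured values. A cell needed 500 to 6000 detected genes, less than 25% of its UMIs (unique molecular identifiers, each standing for 1 captured transcript) from mitochondrial genes, no UMI of the leukocyte gene Ptprc, and a UMI of at least 3 of the endothelial genes Cdh5, Pecam1, Kdr, Emcn, Tie1, Esam and Plvap. It also needed a UMI of at least 3 of the 8 sinusoidal genes Stab2, Gpm6a, Dnase1l3, Il13ra2, F8, Mrc1, Cyp4b1 and Lipg, and of fewer than 2 of the arterial genes Gja5, Sema3g, Stmn2, Fbln2 and Jag2. The 22598 cells that met the endothelial part of this rule are called endothelial cells, and the 11804 of them that were not sinusoidal are called other endothelial cells. The values of the genes in the rule are given as a description and support nothing by themselves.

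Control mice had the genotype Dach1OE +/f, a Dach1 transgene that stays silent without Cre recombinase, and the other group was Apj CreERT2 - Dach1OE +/f, in which a tamoxifen-inducible Cre is driven by the promoter of Aplnr (Apj), the apelin receptor gene. All mice were C57BL/6 of both sexes, received tamoxifen after birth and were analysed at postnatal day 30, and each library pooled 2 mice. The comparison asked how bone vessels differ when DACH1, a nuclear factor that controls transcription, is switched on in them. The Cre acts in cells that express Aplnr while tamoxifen is present and the switched-on transgene then passes to their descendants, whatever their type. The cells were depleted of haematopoietic cells with the epiphysis removed. There was no replicate library in either group, so no test between the groups was possible. Every interval below is a 95% interval that covers counting error only, and a gene was counted as differing where its level changed at least 2-fold.

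Sinusoids are the wide, thin-walled venous capillaries of the marrow. Their endothelium takes up waste molecules through scavenger receptors such as STAB1 and STAB2, carries the lymphatic growth factor receptor VEGFR3 (encoded by Flt4) without being lymphatic, and presents adhesion molecules such as VCAM1 and selectins through which blood cells enter and leave the marrow. It is also a source of factors that support haematopoietic stem cells.

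The libraries held 28720 Control and 32028 Dach1OE cells with 143986818 and 166999989 UMIs. Sinusoidal cells were of like depth in both, the median Control cell holding 3278 UMIs of 1730 genes and the median Dach1OE cell 3562 UMIs of 1820 genes, with medians of 7.88% and 7.84% mitochondrial UMIs. Of the sinusoidal cells, 2342 Control and 1216 Dach1OE cells had Xist and no Y-linked UMI, and 1921 and 899 had Y-linked UMIs and no Xist. These were read as cells from the female and the male mice of a library and are given as Xist cells and Y cells, as a description within each library. The libraries shared 1049 cell indices, of which 27 belonged to a sinusoidal cell in both. RNA of other cells was present, since Col2a1, the cartilage collagen, stood at 6218 CPM (UMIs of the gene per 1000000 UMIs, summed over the cells) in Control and 7245 CPM in Dach1OE sinusoidal cells, and the bone collagen gene Col1a1 at 5349 and 5752 CPM. All 5 chondrocyte genes listed were at or above 100 CPM in both groups, with a summed level of 8555 and 10312 CPM. Their part in the results was not tested.

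The share of endothelial cells that were sinusoidal was lower in the Dach1OE library. It was 66.7% (exact binomial interval 65.8 to 67.5) of 10937 Control cells and 30.0% (29.2 to 30.9) of 11661 Dach1OE cells, a difference of -36.6 percentage points. Both kinds of cells differed in the same direction, from 65.8% to 33.7% among Xist cells and from 74.1% to 32.5% among Y cells. Of all cells that passed the filters, 27.5% and 11.9% were sinusoidal. Since the share rests on the 8 rule genes, fewer sinusoidal cells and fewer transcripts of these genes per cell cannot be told apart.

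The sinusoidal cells that the rule found in Dach1OE carried fewer of the 8 genes. The median number per sinusoidal cell was 6 in Control and 4 in Dach1OE. Exactly 3, the lowest number allowed, were present in 829 Control cells (11.4%) and 1289 Dach1OE cells (36.8%), and 6 or more in 3974 (54.5%) and 807 (23.0%). Just outside the rule, 721 Control and 1480 Dach1OE endothelial cells had exactly 2. No sinusoidal gene at all was found in 14.8% of Control and 39.6% of Dach1OE endothelial cells. With every cell thinned to 1000 UMIs, at least 4 of the 8 genes were seen in 40.7% of Control and 15.3% of Dach1OE sinusoidal cells.

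**Figure D1:**
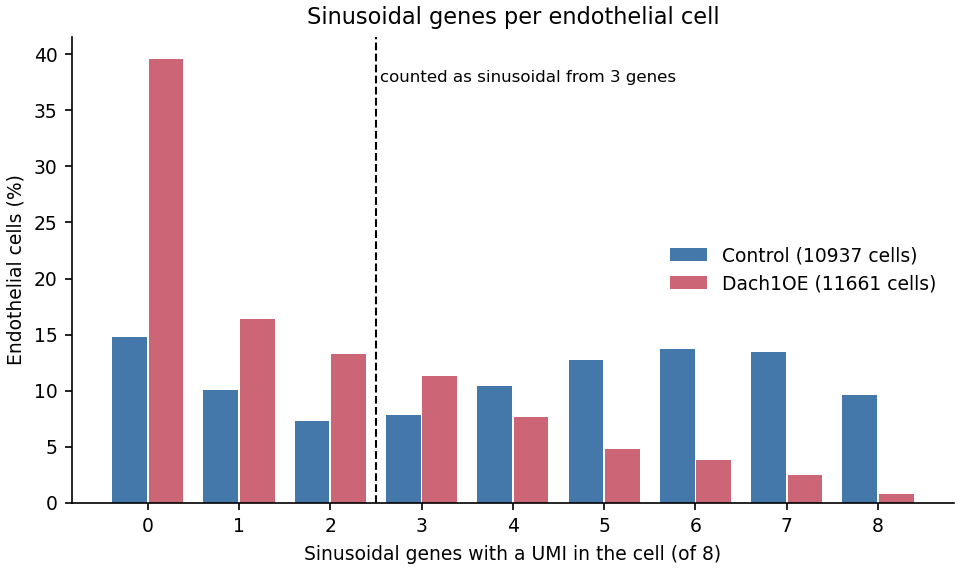
Percent of endothelial cells (y axis) by the number of the 8 sinusoidal genes with a UMI in the cell (x axis), for 10937 Control and 11661 Dach1OE cells, with a dashed line where the rule starts to count a cell as sinusoidal. No sinusoidal gene was found in 14.8% of Control and 39.6% of Dach1OE cells, and all 8 in 9.59% and 0.780%.

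The 8 genes did not fall alike, as the plot of sinusoidal gene levels shows. Stab2, the hyaluronan scavenger receptor, was at 900 CPM in Control and 798 CPM in Dach1OE sinusoidal cells, a log2 ratio of -0.17. Gpm6a, a neuronal and sinusoidal membrane glycoprotein, went from 702 to 224 CPM (log2 ratio -1.65), and Dnase1l3, a secreted nuclease that clears DNA, from 360 to 125 CPM (-1.52). Between these lay Il13ra2, a decoy receptor for interleukin 13 (-0.98), Cyp4b1 (-0.98), F8, coagulation factor VIII (-0.86), Lipg, endothelial lipase (-0.48) and Mrc1, the mannose receptor (-0.42). The rule favoured cells with these genes, so the ratios describe the chosen cells only. The 7 endothelial genes of the rule stayed within 0.16 of 0 on the log2 scale.

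Sinusoidal genes that the rule did not use were also lower in most cases. This is a description, since their list was chosen with earlier results of these data known. The list held 15 genes, 14 of them at least 2-fold above the other endothelial cells in Control, and 14 of the 15 had a log2 ratio below 0, with a median of -0.50 against 0.01 over the 13393 genes with at least 50 UMIs. Past 2-fold, 3 were lower and 1 was higher, where 1.31% of all genes measured were 2-fold lower, 1.05% were 2-fold higher and 2.36% were either. The same 15 genes had a median of -0.05 in the other endothelial cells. Those include cells just outside the rule, with 2 sinusoidal and fewer than 2 arterial genes, 721 in Control and 1480 in Dach1OE. Such cells had 287 and 463 CPM of Vcam1, and 258 and 156 CPM of Cd36. Their part in the median of -0.05 was not tested.

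Cxadr, an adhesion protein of cell junctions that viruses use as a receptor, had the lowest ratio of the 15. Its level fell from 92.3 to 39.7 CPM, with 73.6 and 42.6 CPM in Xist cells and 110 and 31.5 CPM in Y cells. The log2 ratio was -1.22 (interval -1.35 to -1.09). Unthinned, a UMI was found in 25.3% of Control and 13.4% of Dach1OE sinusoidal cells. Cxadr was close to absent elsewhere in the endothelium, at 5.23 and 4.37 CPM in the other endothelial cells. The ratio was under 2-fold in Xist cells (-0.79), at 1000 UMIs per cell (-0.67), and in cells with at least 4 (-0.99) or at least 5 sinusoidal genes (-0.89).

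Cd36, the fatty acid and thrombospondin receptor, fell from 882 to 415 CPM, with 732 and 375 CPM in Xist cells and 1013 and 432 CPM in Y cells. Its log2 ratio was -1.09 (-1.13 to -1.05). The other endothelial cells showed a like ratio, -1.37. Il6st, the gp130 receptor chain shared by interleukin 6 family cytokines, fell from 1190 to 579 CPM, from 1128 to 573 CPM in Xist cells and from 1221 to 571 CPM in Y cells, a log2 ratio of -1.04 (-1.07 to -1.004). For both genes the lower value belonged to Dach1OE in every pairing of Xist and Y cells. Neither ratio was 2-fold in Xist cells (-0.97 and -0.98), at 1000 UMIs per cell (-0.66 and -0.59), or in cells with at least 4 (-0.83 and -0.86) or at least 5 sinusoidal genes (-0.61 and -0.69).

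The remaining lower genes were under 2-fold. Vcam1, the leukocyte adhesion molecule, was at 1095 and 774 CPM (log2 ratio -0.50), with 878 and 606 CPM in Xist cells and 1292 and 939 CPM in Y cells, so the Dach1OE Y cells lay above the Control Xist cells. Abcc9, the sulfonylurea receptor of potassium channels, was at 1238 and 796 CPM (-0.64). Adgrg6 (-0.86), Fcgr2b, the inhibitory Fc receptor that clears immune complexes (-0.78), Tfpi2 (-0.65), Rgs4 (-0.43), Adamts5 (-0.33) and the selectin gene Sele (-0.32) were also under 2-fold.

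A further group of sinusoidal receptors hardly differed. Flt4 was at 702 CPM in Control and 657 CPM in Dach1OE (log2 ratio -0.10), Stab1 at 782 and 750 CPM (-0.06) and Gpr182, a chemokine-scavenging receptor of sinusoids, at 499 and 456 CPM (-0.13). Outside the rule's cells Gpr182 went the other way, from 93.0 to 178 CPM in the other endothelial cells. In those with exactly 2 sinusoidal and fewer than 2 arterial genes Gpr182 was at 187 and 398 CPM. Madcam1, an addressin that binds lymphocyte integrins, was the exception of the list. Its level rose from 11.8 to 91.3 CPM, from 12.6 to 120 CPM in Xist cells and from 12.1 to 63.7 CPM in Y cells, a log2 ratio of 2.96 (2.79 to 3.13).

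**Figure D2:**
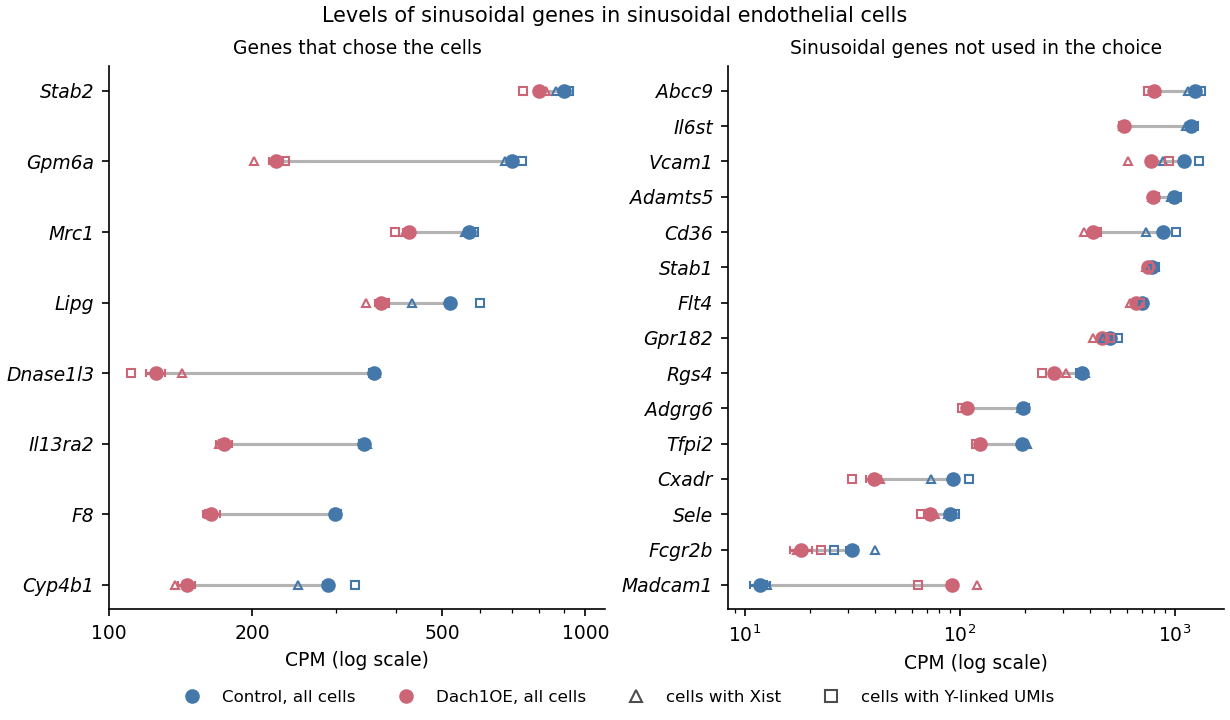
Level in CPM (x axes, log scale) in Control and Dach1OE sinusoidal cells of the 8 rule genes (left) and 15 sinusoidal genes outside the rule (right). Filled circles are all sinusoidal cells with 95% Poisson intervals and open symbols are Xist cells or Y cells, and 14 of the 15 genes on the right lie lower in Dach1OE.

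Among the genes that set Control sinusoidal cells apart from other endothelium, 557 were at least 2-fold higher in them (4.09% of 13617 genes) and 1393 (10.2%) at least 2-fold lower. The corresponding counts in Dach1OE were 387 (2.82% of 13707) and 982 (7.16%), and 315 of the higher genes were past 2-fold in both libraries. These contrasts follow from the choice of cells. The genes with the highest ratio in Control outside the rule were Rdh16, a retinol dehydrogenase (log2 ratio over other endothelial cells 4.14), Cxadr (4.14), Fgf23, the phosphate-regulating hormone (4.12) and Ubd, a ubiquitin-like protein (4.06).

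Dach1 itself served as the check of the labels. Control sinusoidal cells held 119 Dach1 UMIs, 3.95 CPM (exact Poisson interval 3.27 to 4.73), and Dach1OE sinusoidal cells 1993, 130 CPM (124 to 136). Levels were 5.60 and 125 CPM in Xist cells and 3.27 and 142 CPM in Y cells, and the log2 ratio was 5.04 (4.77 to 5.32). Gt(ROSA)26Sor, the transcript of the Rosa26 locus into which the transgene was placed, rose from 15.7 to 119 CPM (2.92). In chondrocytes, which are not endothelial, it was lower in Dach1OE, at 7.64 and 1.67 CPM, and the reason was not tested. The paper's breeding also used R26-mT/mG mice, whose reporter lies at the same locus, and the labels do not name it. The driver gene Aplnr stood at 427 and 397 CPM (-0.10), so its own level differed little between the sinusoidal cells of the groups. The files do not separate transgene reads from those of the endogenous Dach1 gene (GENCODE vM21 on GRCm38, chr14:97786853-98169765, minus strand), and the same holds for the Rosa26 transcript.

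A Dach1 UMI was found in a minority of Dach1OE sinusoidal cells. With all cells thinned to 1000 UMIs, which left out 91 Control and 33 Dach1OE sinusoidal cells, the share was 0.333% (exact binomial interval 0.214 to 0.496) in Control and 12.05% (10.98 to 13.2) in Dach1OE, and unthinned 1.47% and 32.2%. In chondrocytes, used as a type that should lack the transcript and with a median of 10438 and 9933 UMIs, the thinned shares were 0.306% and 0.402%. The Control share of sinusoidal cells was close to that of Control chondrocytes, which were not shown to lack Dach1. Blood cells with Ptprc had 3.64% and 6.28%. Other endothelial cells of Dach1OE reached 16.9%. A cell without a Dach1 UMI is not shown to lack expression of the transgene at this depth.

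Scgb3a1, a small secreted secretoglobin, had the second highest ratio among genes with at least 100 UMIs, after the gene model Gm13305 with 8 and 193 UMIs (5.56). It had 429 UMIs, 14.2 CPM, in Control and 7883 UMIs, 513 CPM, in Dach1OE sinusoidal cells. Xist cells had 11.8 and 435 CPM and Y cells 17.1 and 620 CPM, and the log2 ratio was 5.17 (5.03 to 5.31). After thinning, 1.43% of Control and 28.7% of Dach1OE sinusoidal cells held a UMI, against 0 of 495 Control and 0 of 589 Dach1OE blood cells, which at 3 counts of the total allows up to 0.606% and 0.509% (exact binomial upper limits 0.742% and 0.624%). Unthinned, 386 Control and 1561 Dach1OE sinusoidal cells held 1, with no cell above 40 UMIs. In Control the gene marked sinusoidal cells already, since the other endothelial cells had 2.22 CPM and cells of the arterial gate (at least 2 of the 5 arterial genes) 0.307 CPM. The other endothelial cells of Dach1OE had 228 CPM and those of the arterial gate 51.5 CPM.

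A few genes that Control sinusoidal cells expressed above other endothelium rose. Of the 557 such genes 11 were 2-fold higher and 51 were 2-fold lower in Dach1OE, where 1.05% and 1.31% of all genes were, and as these genes were chosen on the Control cells of the same ratio nothing is read from the counts. Besides Scgb3a1 and Madcam1, Rdh16 rose from 11.4 to 47.2 CPM (log2 ratio 2.05), from 8.88 to 43.2 CPM in Xist cells and from 13.7 to 53.4 CPM in Y cells. Fgf23 rose from 22.4 to 46.9 CPM (1.07), though in Y cells it went from 29.6 to 45.4 CPM, which is under 2-fold. Clca3a1, a chloride channel accessory protein chosen for naming after its values were seen, rose from 312 to 772 CPM (1.31). Pkp2, the desmosomal plakophilin, rose from 4.32 to 26.03 CPM (2.59) and the neuronal gene Slitrk4 from 1.66 to 11.3 CPM (2.77).

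The 250 bases before the RefSeq start sites of Scgb3a1, Madcam1, Rdh16 and Clca3a1 (GRCm38.p6, gene sense, 5′ to 3′) are shown because these genes are sinusoidal and were at least 2-fold higher in Dach1OE. Capitals mark AGGAAG, the core bound by ETS factors of endothelium, or its reverse complement on the other strand. The positions are chr11:49663345-49663594 (plus strand) for Scgb3a1, chr10:79664309-79664558 (plus) for Madcam1, chr10:127800903-127801152 (plus) for Rdh16 and chr3:144760978-144761227 (minus) for Clca3a1.
Scgb3a1: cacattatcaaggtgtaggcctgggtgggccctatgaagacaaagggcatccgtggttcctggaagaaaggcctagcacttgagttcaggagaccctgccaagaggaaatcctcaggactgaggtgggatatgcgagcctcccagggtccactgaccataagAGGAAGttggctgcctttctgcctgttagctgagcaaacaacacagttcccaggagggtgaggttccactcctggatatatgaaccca
Madcam1: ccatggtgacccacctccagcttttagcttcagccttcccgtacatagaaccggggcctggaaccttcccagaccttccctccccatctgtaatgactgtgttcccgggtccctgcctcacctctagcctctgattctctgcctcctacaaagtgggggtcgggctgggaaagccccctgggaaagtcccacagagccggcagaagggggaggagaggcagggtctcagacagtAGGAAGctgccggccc
Rdh16: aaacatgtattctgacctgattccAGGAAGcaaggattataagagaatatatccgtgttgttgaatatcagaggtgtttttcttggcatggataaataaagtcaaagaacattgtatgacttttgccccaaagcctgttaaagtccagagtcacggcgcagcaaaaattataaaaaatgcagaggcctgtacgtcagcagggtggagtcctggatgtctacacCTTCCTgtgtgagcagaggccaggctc
Clca3a1: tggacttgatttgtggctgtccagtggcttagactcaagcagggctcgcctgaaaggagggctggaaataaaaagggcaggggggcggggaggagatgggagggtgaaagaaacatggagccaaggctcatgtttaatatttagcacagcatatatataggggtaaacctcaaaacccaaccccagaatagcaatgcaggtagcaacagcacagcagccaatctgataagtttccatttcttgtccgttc
AGGAAG was found once in the window of Scgb3a1, 88 bases before the start, once in that of Madcam1, 16 bases before, at 226 and 27 bases before the start of Rdh16, and not in that of Clca3a1. The motif, searched on both strands, was in 29.5% of all 32851 promoter windows of this length. AGATAA, a form of the motif of GATA factors, was searched in the same way. It was found in 9.99% of all windows and in none of the 4. Other forms of that motif were not searched, so the 4 windows are not shown to lack a GATA motif. A match here is a description of letters and not a bound site.

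A second group that rose consisted of genes that Control sinusoidal cells expressed below other endothelium. Vwf, von Willebrand factor, which platelets bind, rose from 9.70 to 105 CPM in sinusoidal cells, with 10.9 and 97.1 CPM in Xist cells and 7.56 and 118 CPM in Y cells. Its log2 ratio was 3.43 (3.25 to 3.62). After thinning, 1.17% of Control and 9.22% of Dach1OE sinusoidal cells held a UMI, and unthinned 2.80% and 26.3%. Other endothelial cells went from 109 to 239 CPM, so that the difference of the ratios (sinusoidal minus other) was 2.29 (2.10 to 2.49). Ackr3, an atypical receptor that removes CXCL12 and adrenomedullin, rose from 10.6 to 56.9 CPM (2.43), from 11.4 to 54.3 CPM in Xist cells and from 9.70 to 67.8 CPM in Y cells. The levels in Dach1OE sinusoidal cells remained under those of the other Dach1OE endothelial cells for Vwf and for Ackr3 (115 CPM). Ppp1r9a, a neuronal scaffold gene, rose from 2.79 to 30.8 CPM (3.47), where other endothelial cells of Control had 4.66 CPM. Igfbp5, an insulin-like growth factor binding protein gene named after its values were seen, rose from 923 to 2154 CPM (1.22), with 1001 CPM in other endothelial cells of Control. Its ratio was under 2-fold in Xist cells (0.95), with at least 5 sinusoidal genes (0.78) and with Dach1OE cells weighted to the Control numbers of these genes (0.76).

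The transcription factors that rose belonged to this group too. Of 21 vascular transcription factors, 3 were 2-fold higher and none was lower, with a median of -0.06. Of all genes 1.05% were 2-fold higher and 1.31% 2-fold lower. Meox1, a mesoderm homeobox factor, rose from 13.9 to 53.8 CPM (log2 ratio 1.95), with 16.1 and 64.9 CPM in Xist cells and 12.5 and 45.2 CPM in Y cells. Tcf15, a basic helix-loop-helix factor, rose from 1.46 to 8.59 CPM (2.56) and Gata6 from 1.10 to 3.32 CPM (1.60). The more abundant factors moved less. The venous factor Nr2f2 was at 778 and 595 CPM (-0.39), Sox18 at 786 and 682 CPM (-0.20), Maf at 602 and 577 CPM (-0.06) and Erg at 209 and 212 CPM (0.02). The lymphatic master factor Prox1 had 3.32 and 5.66 CPM, and at least 3 of 6 lymphatic genes were found in 8 Control cells and 1 Dach1OE cell, so lymphatic vessels made up very few of the cells.

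Arterial genes outside the rule were mixed. Of 13 with at least 50 UMIs, 2 were higher and 1, Cxcl12, lower past 2-fold, with a median of 0.15. The shares over all genes were 1.05% higher and 1.31% lower. The Cxcl12 value is set beside stromal RNA with the niche factors. Sema7a, a membrane semaphorin, rose from 21.9 to 81.2 CPM (1.89) and the gap junction gene Gja4 from 2.82 to 11.4 CPM (2.01). Sox17 (64.8 and 69.5 CPM), Dll4 (125 and 148 CPM) and Hey1 (4.38 and 5.60 CPM) stayed under 2-fold, and Fbln5, an elastic fibre protein, was at 102 and 52.1 CPM (-0.98). Arterial cells as chosen by the arterial gate numbered 802 in Control and 1827 in Dach1OE. Cells with at least 3 sinusoidal and at least 2 arterial genes, which the rule left out, numbered 121 and 83.

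**Figure D3:**
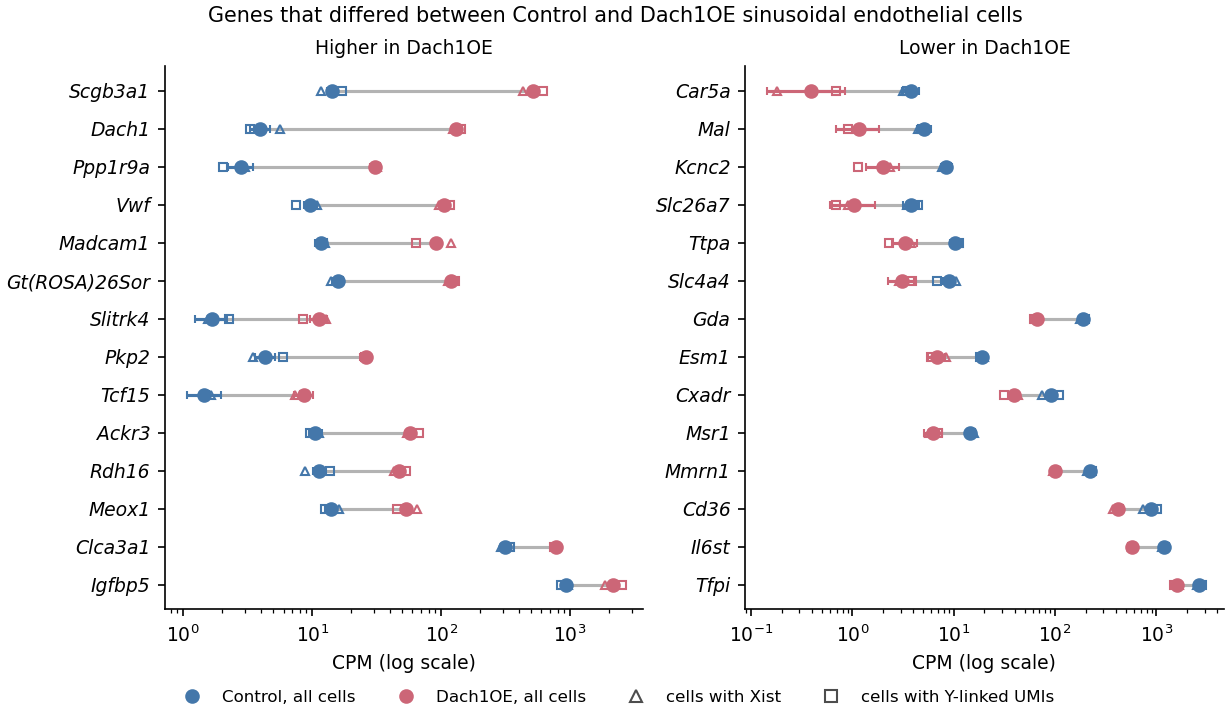
Level in CPM (x axes, log scale) in Control and Dach1OE sinusoidal cells of 14 genes that were higher (left) and 14 that were lower (right) in Dach1OE, with 95% Poisson intervals on the filled circles and open symbols for Xist cells or Y cells. Scgb3a1, Dach1 and Vwf on the left and Gda on the right keep the groups apart in both kinds of cells.

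Across all genes, 140 (1.05%) were 2-fold higher and 176 (1.31%) were 2-fold lower in Dach1OE sinusoidal cells. These shares are to be set beside the counts given for each gene list. The ratio was 2-fold within the Xist cells and within the Y cells as well for 78 of the higher and 69 of the lower genes.

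Named genes on the lower side, picked by their ratios, included several enzymes and carriers. Gda, guanine deaminase, fell from 188 to 66.3 CPM (-1.51), from 175 to 65.0 CPM in Xist cells and from 198 to 61.9 CPM in Y cells, but its ratio was under 2-fold at 1000 UMIs per cell (-0.87) and with at least 5 sinusoidal genes (-0.81). Ttpa, the vitamin E transfer protein, fell from 10.4 to 3.32 CPM (-1.64, and -0.97 with Dach1OE cells weighted to the Control numbers of sinusoidal genes), the bicarbonate transporter Slc4a4 from 8.97 to 3.06 CPM (-1.55, and -0.83 in Y cells), and Car5a, a mitochondrial carbonic anhydrase, from 114 to 6 UMIs (-3.28). Selenop, the plasma selenium carrier and among the most abundant transcripts of Control sinusoidal cells, was at 12400 and 7972 CPM (-0.64).

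Uptake genes had a median ratio slightly below 0. Over all 13393 genes the median was 0.01, and 1.05% were 2-fold higher and 1.31% 2-fold lower. Of 16 scavenger and endocytic genes with at least 50 UMIs, none was higher and 2 were lower past 2-fold, Cd36 and Msr1, the macrophage scavenger receptor (14.5 and 6.25 CPM, -1.22), while 11 had a ratio below 0 and the median was -0.16. Clec2d was at -0.80, Dab2 at -0.42, Scarb1 at 0.08 and the lysosomal protease gene Ctsl at 0.25. Among 12 lipid genes 1 was lower, again Cd36. The fatty acid binding protein genes differed in direction, Fabp4 at 7220 and 5417 CPM (-0.41) and Fabp5 at 63.2 and 118 CPM (0.90), and so did Lpl, lipoprotein lipase (-0.45), and Gpihbp1, its capillary anchor (0.56).

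Coagulation and adhesion genes showed no common direction. Past 2-fold, 1.05% of all genes were higher and 1.31% lower. Of 12 coagulation genes Vwf alone passed 2-fold. Tfpi, the inhibitor of tissue factor, had a large level and a smaller ratio, at 2614 and 1596 CPM (-0.71), with 2492 and 1678 CPM in Xist cells and 2821 and 1493 CPM in Y cells. Thbd, thrombomodulin, was at 609 and 496 CPM (-0.30). Of 11 leukocyte adhesion genes Madcam1 alone passed 2-fold, with Selp, P-selectin, at 362 and 235 CPM (-0.62), the chemokine receptor gene Ackr1 at 722 and 579 CPM (-0.32) and Icam2 at 121 and 193 CPM (0.68).

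Of 16 haematopoietic niche factors, none was higher and 2, Cxcl12 and Il7, were lower past 2-fold, with a median of -0.26. Among all genes 1.05% were 2-fold higher and 1.31% 2-fold lower. Both lower niche genes had ratios close to that of Adipoq, the lowest of 6 stromal genes. Those 6 had a median of -0.05 and a highest ratio of 0.31, with 3 above 0 and 3 below. Cxcl12, the chemokine that holds haematopoietic cells in marrow, was at 789 and 357 CPM in the sinusoidal cells of Control and Dach1OE (-1.14), and at 815 and 393 CPM in Xist cells and 691 and 381 CPM in Y cells. The same fall was seen where the gene should be low, from 771 to 301 CPM in blood cells and from 264 to 108 CPM in chondrocytes. Adipoq, a gene of marrow stromal cells named after its values were seen, was at 139 and 57.5 CPM in sinusoidal cells (-1.27), and the ratio of Cxcl12 to Adipoq was 5.68 in Control sinusoidal cells, 6.22 in blood cells and 6.38 in chondrocytes, and 6.21, 5.09 and 6.74 in Dach1OE. In the other endothelial cells that ratio was 6.74 in Control and 14.3 in Dach1OE. Lepr, another stromal gene, was at 69.3 CPM in Control and 36.1 CPM in Dach1OE sinusoidal cells. It was at 30.5 and 10.2 CPM in blood cells and at 12.8 and 5.66 CPM in chondrocytes. The ratio of Cxcl12 to Lepr was less alike across these cells than that to Adipoq. In cells with under 1% of UMIs from other cell types, a setting chosen after seeing the data, Cxcl12 was at -0.77, and it was at -0.32 without cells holding 2 genes of other cell types, which left 327 Control and 88 Dach1OE cells. Il7 was at 5.35 and 2.21 CPM (-1.27), and at -0.42 in that setting and -0.46 in Y cells. Adipoq ranged from -1.50 to -1.07 over the alternative settings, and the part of stromal RNA in Cxcl12 and Il7 was not tested. Kitl, stem cell factor, was at 44.5 and 34.6 CPM (-0.36).

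Signalling pathways of vessels mostly stayed within 2-fold. None of 8 VEGF pathway genes, of 5 Tie and angiopoietin genes and of 12 Notch genes passed it. Over all genes, 1.05% were 2-fold higher and 1.31% 2-fold lower. Kdr, the main VEGF receptor, was at 1815 and 1778 CPM (-0.03) and Tek, the angiopoietin receptor TIE2, at 254 and 200 CPM (-0.34). The Notch target genes Nrarp and Hes1 were at 61.8 and 109 CPM (0.81) and at 164 and 218 CPM (0.41). Of 16 BMP and TGF-β genes 1 was higher, Bmp4, from 28.8 to 67.1 CPM (1.22), with 29.4 and 67.2 CPM in Xist cells and 31.0 and 74.0 CPM in Y cells. That ratio was under 2-fold at 1000 UMIs per cell (0.96), with at least 5 sinusoidal genes (0.74) and with equal numbers of these genes (0.90). The inhibitor Smad7 was at 19.4 and 37.3 CPM (0.94). Of 13 hypoxia genes 2 were higher, Egln3, an oxygen sensor, from 6.88 to 24.99 CPM (1.86) and Ankrd37 from 2.76 to 7.81 CPM, with a median of 0.22, while Hif1a was at 132 and 120 CPM (-0.14). Angptl4, a hypoxia-inducible gene that was not on this list, was at 145 and 98.1 CPM (-0.56).

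Of 14 basement membrane genes, 11 had a ratio above 0, 1 was 2-fold higher and the median was 0.32. Over all genes the median was 0.01 and 1.05% were 2-fold higher. Lamb1 rose 2.83-fold, from 26.9 to 76.2 CPM, from 32.2 to 71.5 CPM in Xist cells and from 23.8 to 81.1 CPM in Y cells. Lama4, the chain that pairs with it in the laminin of blood vessels, was at 43.7 and 87.4 CPM, just under 2-fold. The chains Lama5 (0.44), Lamc1 (0.10) and Lamb2 (-0.21) had smaller ratios. Other endothelial cells showed the opposite sign for both, with log2 ratios of -0.12 and -0.13, and the differences of the ratios were 1.62 (1.47 to 1.77) and 1.13 (0.99 to 1.27). In Control, cells of the metaphyseal gate (at least 2 of Ramp3, Piezo2, Lamb1 and Apln) had 274 and 219 CPM of the laminins, Lamb1 being part of that gate. The gate held 739 of 3646 other endothelial cells in Control and 1099 of 8158 in Dach1OE. The part of this make-up in the ratios of the other endothelial cells was not tested. Of 8 metaphyseal genes, Lamb1 included, 4 had a ratio above 0 in sinusoidal cells and the median was -0.01. Apln was at 49.9 and 77.7 CPM (0.64), Mcam at 0.28, Ramp3 and Piezo2 at -0.35 and -0.43, and Esm1 fell from 19.2 to 6.77 CPM (-1.50, and -0.96 with under 1% of UMIs from other cell types).

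**Figure D4:**
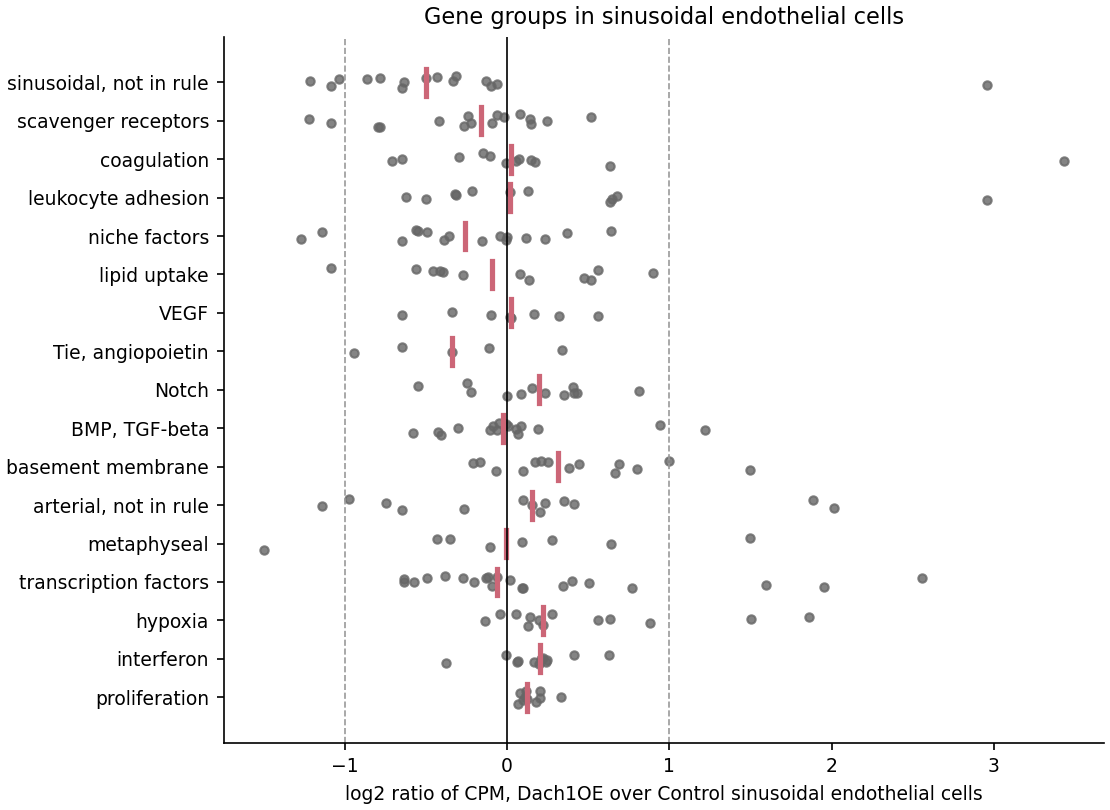
Log2 ratio of CPM in Dach1OE over Control sinusoidal cells (x axis) for the genes of 17 groups (rows), 1 point per gene, with the group median in red and dashed lines at 2-fold. Most points lie within 2-fold, the sinusoidal genes outside the rule have the lowest median (-0.50), and Vwf and Madcam1 lie apart on the right.

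The level of some genes followed the number of sinusoidal genes in a cell. Control cells with 3 and with 8 of the genes had 514 and 1451 CPM of Vcam1, 472 and 1155 CPM of Cd36 and 658 and 867 CPM of Nr2f2. In Dach1OE the corresponding values were 591 and 1020 CPM, 210 and 895 CPM, and 460 and 735 CPM. Other genes ran the other way or differed little, with Aplnr at 699 and 299 CPM, Cxcl12 at 1121 and 513 CPM and Stab1 at 719 and 797 CPM in Control, and at 386 and 360 CPM, 400.4 and 123 CPM, and 648 and 804 CPM in Dach1OE. Cells with more sinusoidal genes were also deeper, with a median of 2220 UMIs at 3 genes and 5380 at 8 genes in Control, and the part of depth was not tested. At the same number of genes, Cd36 was lower in Dach1OE at every number from 3 to 8, whereas Vcam1 at 3 genes was higher in Dach1OE than in Control.

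Dach1, the Rosa26 transcript, Scgb3a1, Vwf and Madcam1 had lower levels at 8 than at 3 sinusoidal genes in Dach1OE. Dach1 was at 181 CPM in cells with 3 sinusoidal genes and at 38.9 CPM in cells with 8, the Rosa26 transcript at 168 and 25.3 CPM, Scgb3a1 at 749 and 201 CPM, Vwf at 150 and 49.0 CPM and Madcam1 at 121 and 47.3 CPM. In Control, Vwf (21.8 and 4.09 CPM) and Dach1 (7.13 and 1.80 CPM) were also lower at 8 genes, whereas Scgb3a1 (6.38 and 19.1 CPM) and Madcam1 (3.38 and 17.3 CPM) were higher. Just outside the rule, at 2 genes, Dach1OE Dach1 was at 169 CPM and Scgb3a1 at 570 CPM. Only 89 Dach1OE sinusoidal cells held all 8 genes. The endothelial gene Cdh5 stood at 1254 and 1174 CPM at 3 and 8 genes, against 1112 and 1178 CPM in Control.

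**Figure D5:**
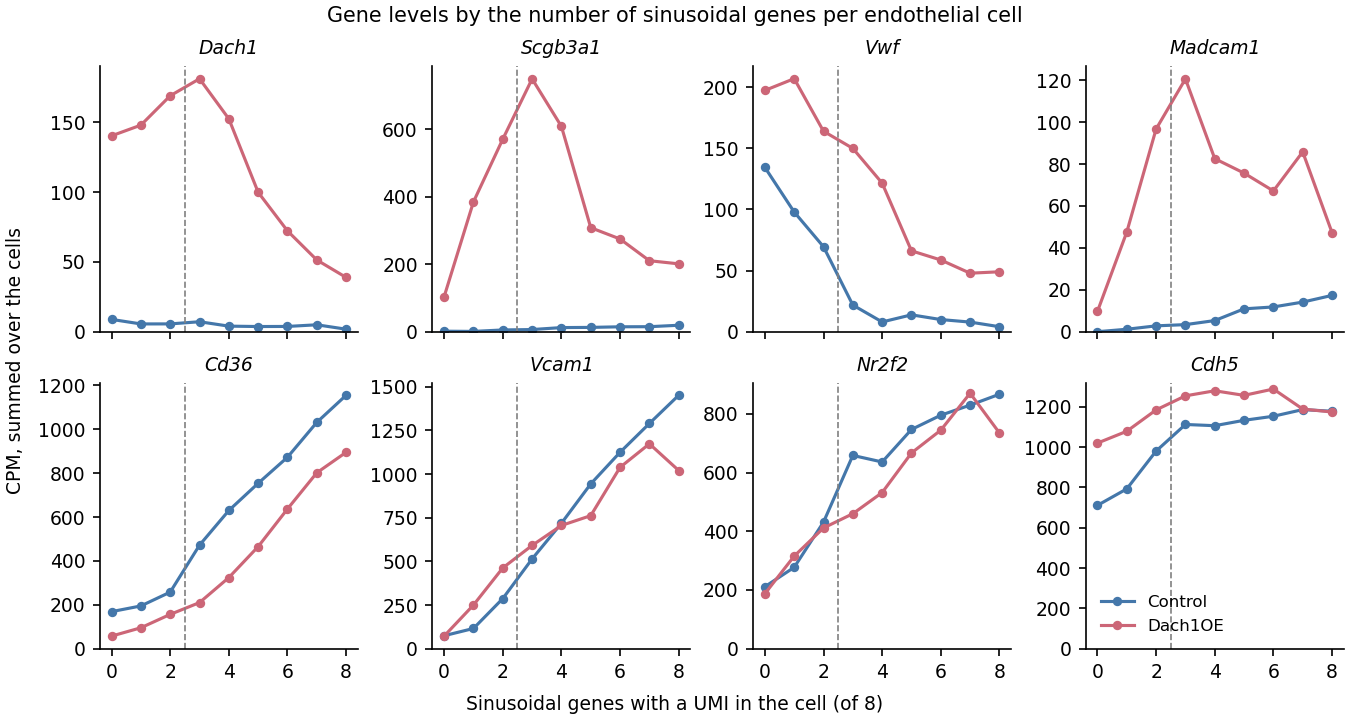
Level in CPM (y axes, linear from 0) of 8 genes in Control and Dach1OE endothelial cells grouped by the number of sinusoidal genes with a UMI (x axes, 0 to 8), with a dashed line where the rule begins. Dach1, Scgb3a1 and Vwf in Dach1OE are lower at 8 than at 3 sinusoidal genes, while Cd36, Vcam1 and Nr2f2 are higher in both groups.

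Because Dach1OE sinusoidal cells had fewer of the 8 genes, the ratios were also taken with Dach1OE cells weighted to the Control distribution of that number, an alternative chosen after seeing the data. The median of the 15 sinusoidal genes outside the rule was then -0.22, and the ratios of Cd36 (-0.50), Il6st (-0.61), Cxadr (-0.69), Gda (-0.78) and Tfpi (-0.28) were all within 2-fold, although the number of all genes 2-fold lower was 278 in place of 176. Those of Scgb3a1 (4.55), Vwf (2.88), Madcam1 (2.68), Ackr3 (2.12) and Meox1 (1.71) remained past 2-fold.

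Within the Dach1OE library, the 1129 sinusoidal cells with a Dach1 UMI were set beside the 2374 without. They were deeper, with a median of 4434 and 3119.5 UMIs, and held 3.99 sinusoidal genes on average against 4.57. Of 11450 genes, 66 (0.576%) were 2-fold higher and 166 (1.45%) 2-fold lower in the cells with a UMI. Among the higher genes the log2 ratios were 1.61 for the Rosa26 transcript, 1.57 for Scgb3a1, 1.40 for Rdh16, 1.30 for Ackr3, 1.24 for Pkp2, 1.18 for Sema7a, 1.112 for Vwf and 1.02 for Bmp4. These are named genes that were also higher in Dach1OE than in Control, and the same Dach1OE cells enter both ratios. How many of the 66 were higher in both is not given here. Among the lower genes were Gda (-1.68) and Mmrn1, multimerin 1 (-1.64). The rule genes were not among the 11450 genes. Of the rule genes, Il13ra2 (-1.83), Gpm6a (-1.75) and Dnase1l3 (-1.65) were lower, which only describes cells chosen by these genes. Gpr182 (0.33), Rgs4 (0.62) and the rule gene Lipg (0.20) were not lower. Unthinned, a UMI of both Dach1 and Scgb3a1 was found in 858 Dach1OE sinusoidal cells (24.5%) and in 5 Control cells. Cells without a Dach1 UMI may still express the transgene, and the part of depth in this split was not tested.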

How the data were processed

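Cells of femur and tibia from both groups were captured and sequenced by the authors with the BD Rhapsody whole transcriptome assay, and the deposited tables hold counts, per the file headers UMIs per cell and gene after the pipeline's recursive substitution error correction (BD Rhapsody WTA Analysis Pipeline 1.11, GRCm38 with GENCODE vM19 annotation). Whether reads were counted by strand is not given in the sources used here. The tables contain all cells together, and sinusoidal cells were chosen by the gene rule given in the report. Doublets were not removed by a caller, and no clustering was used.

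UMIs were summed over the cells of each library and divided by their total to give CPM, with no further scaling. Ratios of Dach1OE over Control were taken for genes with at least 50 UMIs over both libraries, as log2 values with intervals from the binomial split of the 2 counts. Levels carry exact Poisson intervals, shares exact binomial (Clopper-Pearson) intervals and differences of shares Newcombe intervals, all at 95% and for counting error only. Shares of cells with a UMI were taken after each cell was thinned to 1000 UMIs, or without thinning where given as unthinned. Numbers of sinusoidal genes per cell were counted without thinning, except where thinning is stated. No p-value was computed, since each group had 1 library of 2 pooled mice. The genes named were those of functional lists, the 15 highest and 15 lowest ratios among genes with at least 100 UMIs and the same direction in Xist cells and Y cells, the 15 most specific to sinusoidal cells, the 10 most abundant, and a few named in the report as chosen after their values were seen. Some of these genes are not reported here. The rule, its cells and the lists were chosen with earlier results of these data known. Gene positions and promoter sequences came from GENCODE vM21 and RefSeq. Computations used Python 3.11.15 with numpy 2.4.6, scipy 1.17.1 and pandas 2.3.3, and the alternative scalings used edgeR 4.0.16 and DESeq2 1.42.0 in R 4.3.3. The procedure was tested on simulated data.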

Additional observations from a re-analysis of the deposited data

Results flagged for a closer look

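For 11 of the genes on the lists, the ratio of Dach1OE over Control had one sign in the Xist cells and the opposite sign in the Y cells, with counting intervals on either side of 0. Whether the ratios differ was not tested, since each kind of cell came from 1 library per group. The log2 ratios in Xist cells and Y cells were 0.57 and -0.10 for the lysosomal protease gene Ctsl, -0.67 and 0.99 for pleiotrophin (Ptn), 0.18 and -0.27 for Emilin1 and -0.37 and 0.62 for the interferon-induced Ifit3. Among genes of cartilage they were 0.96 and -0.32 for Col10a1 and -0.081 and 0.68 for Col9a1. The globin genes had -0.52 and 0.19 (Hba-a1), -0.86 and 0.53 (Hba-a2) and -0.68 and 0.70 (Hbb-bs), and the granulocyte genes -1.22 and 0.87 (Mpo) and -3.86 and 4.87 (Elane). Of the 89 Elane UMIs in Control sinusoidal cells 67 lay in 1 cell, and of the 33 in Dach1OE 29 lay in 1 cell. The highest cell also held 317 of 1282 Hba-a2 UMIs in Control and 152 of 571 in Dach1OE. For Hbb-bs it held 273 of 1453 and 145 of 720, and for Mpo 81 of 592 and 55 of 266. Counting intervals do not cover such gathering of UMIs in single cells.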

How the results depend on the processing

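The lower share of sinusoidal cells kept its direction under every alternative tried. It moved beyond its counting interval with under 10% mitochondrial UMIs (-38.0 percentage points), 1000 UMIs per cell (-34.5), at least 4 sinusoidal genes (-40.1), Xist cells (-32.0) and Y cells (-41.6). The number of genes 2-fold higher (140) was 68 at 1000 UMIs per cell, 39 without cells holding 2 genes of other cell types, which left 327 Control and 88 Dach1OE cells, and 622 with no minimum of UMIs. The number 2-fold lower (176) was 76, 85 and 1495 in these settings, 108 in Y cells and 278 with equal numbers of sinusoidal genes. Dach1 (5.04) was 5.45 at 1000 UMIs, 7.17 without cells of 2 other-type genes, 4.48 in Xist cells, 5.44 in Y cells, 4.38 with at least 5 sinusoidal genes and 4.42 with equal numbers. The median of sinusoidal genes outside the rule (-0.50) was -0.23 at 1000 UMIs, -0.41 with at least 4 and -0.33 with at least 5 sinusoidal genes, -0.53 in Y cells and -0.22 with equal numbers. The genes 2-fold above other endothelial cells in Control (557) numbered 211 at 1000 UMIs, 251 without cells of 2 other-type genes and 1311 with no minimum. Fewer cells or UMIs, or more genes, entered these counts by construction. Where cells were chosen differently, the cause of a shift was not tested. Of 635 values for 48 named genes, 437 moved by less than their counting interval and 1 changed sign, Serpinb9b at 1000 UMIs (0.71 against -1.51). Cd36 ranged from -1.46 to -0.50, Il6st from -1.10 to -0.59, Vcam1 from -0.53 to -0.02 and Scgb3a1 from 4.11 to 6.59. TMM and DESeq2 scaling shifted all ratios by -0.005 and -0.008. The settings with 5 genes, equal numbers and under 1% of UMIs from other cell types were chosen after seeing the data.

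No paired analysis was possible because each group had 1 library, and leaving out a library was not possible for the same reason. Low counts limit Car5a, with 6 UMIs in Dach1OE, and Lyve1, with 7.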

Other observations

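Dividing cells were present among the sinusoidal cells of both groups. At least 3 of 10 proliferation genes were seen in 2.36% of Control and 2.54% of Dach1OE sinusoidal cells after thinning, a difference of 0.175 percentage points with a counting interval from -0.430 to 0.839, and the 10 genes had log2 ratios between 0.07 and 0.33. An interferon state, at least 3 of 12 interferon-induced genes, was seen in 2.17% and 2.51% after thinning, and none of the 12 genes passed 2-fold. The immediate early genes, which respond to tissue digestion among other stimuli, had a median log2 ratio of 0.22 over 10 genes, with Fos at 315 and 531 CPM. MHC class II genes were low in both groups, with a summed level of 34.0 and 27.7 CPM over 7 genes. At least 2 of Ramp3, Piezo2, Lamb1 and Apln were seen in 1.08% of Control and 1.87% of Dach1OE sinusoidal cells after thinning.

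For some genes a single cell held a large part of the UMIs. In Dach1OE 170 of the 185 UMIs of S100a8, 123 of the 130 of S100a9 and 70 of the 74 of Ngp, all genes of neutrophils, lay in 1 cell. In Control 749 of the 2302 UMIs of Prg2, a granule protein of eosinophils, lay in 1 cell, which left 1553 in other cells against 142 of 180 without the highest cell in Dach1OE.

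H19, an imprinted non-coding RNA named after its values were seen, was at 110 CPM in Control and 210 CPM in Dach1OE sinusoidal cells and at 216 and 1897 CPM in cells of the arterial gate. Car4, a carbonic anhydrase of capillaries, had 4 UMIs in Control and 76 in Dach1OE sinusoidal cells, in 4 and 42 cells.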
